A study of Mus musculus with 18 samples.

Results

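Resident macrophages of the mouse aorta were followed by 10 genes that mark them: *Lyve1*, *Mrc1*, *Cd163*, *Csf1r*, *Cx3cr1*, *Adgre1*, *C1qa*, *C1qb*, *C1qc* and *F13a1*. The genes were fixed by name and found by symbol in both deposited count tables, which list 55453 gene symbols each, and all 10 passed the filter on low counts in both experiments. The question asked of them was whether their RNA differed between wild type aorta and aorta homozygous for an edited CArG box in the promoter of *Tspan2*. A CArG box is the DNA element bound by serum response factor, and *Tspan2* is a tetraspanin gene of smooth muscle.

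Bulk RNA-seq was carried out on mRNA of single aortae from separate mice, purified from total RNA with oligo-dT per the methods of the study. In the first experiment the CArG box carried a substitution of several bases made with Cas9 and homology-directed repair (HDR, homozygotes called *sg/sg*), and 5 wild type and 5 *sg/sg* aortae came from mice aged 12 weeks labelled C57BL/6, with 3 females and 2 males per genotype. In the second, a 1-base substitution had been made with prime editor 2 (PE2, a Cas9 nickase fused to reverse transcriptase, homozygotes called *peg/peg*), and 4 wild type and 4 *peg/peg* aortae came from mice aged 8 weeks labelled FVB/N/B6(Cg)-Tyrc-2J/J, with 3 females and 1 male among the wild type and 4 females among the *peg/peg*. The edit is in the germline, so it was present in every cell of the homozygotes, macrophages included. Age and strain label differed between the experiments together, so neither can be told apart from the editing method, and all tests of genotype were made within an experiment. The methods of the study, unlike the labels, name the same strains for both editing arms, with founders bred to C57BL/6J.

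Macrophages live in the adventitia, the outer coat of the artery, where many of them are seeded before birth and maintain themselves. They depend on signalling through the CSF1 receptor, and those beside vessels are known for endocytic receptors such as LYVE1 and the mannose receptor and for making complement C1q. In bulk RNA, fewer macrophages and less RNA per macrophage cannot be told apart. Of the 10 markers, *Lyve1* is also made by lymphatic endothelium.

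Depth was 17290992 to 24880385 counts per HDR library and 38820265 to 44895615 per PE2 library. *Tspan2* checked the labels: its level was 209 ± 60.1 CPM (the normalised read count, as a share of the library scaled by TMM within an experiment; SD, n = 5) in HDR wild type and 24.9 ± 8.12 (n = 5) in *sg/sg*, and 218 ± 45.0 (n = 4) in PE2 wild type and 19.96 ± 6.74 (n = 4) in *peg/peg*. It was the 1 gene past an adjusted p of 0.05 in each experiment by the quasi-likelihood test of edgeR, which is 0.00609% of 16423 genes tested in HDR and 0.00610% of 16401 in PE2. The aortae also held RNA of other cells. Summed smooth muscle markers ran from 15824 to 52393 CPM over the 18 libraries and summed brown and white fat markers from 34.4 to 2508 CPM, whereas lymphocyte markers summed to at most 21.1 CPM. Of 12 markers of recruited monocytes and inflammatory macrophages, 7 passed the filter in HDR and 8 in PE2. *Gpnmb* was the most abundant of them, at a mean of 26.8 CPM over the 18 libraries, while *Ly6c2*, *Chil3*, *Il1b* and *Tnf* did not pass in either experiment.

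Levels of the 10 genes moved together across libraries, as described further on. Stretches are shown upstream of 3 of them, whose products fill different roles (complement, endocytic receptor and transglutaminase). Only stretches that hold the letters marked in them are shown. They come from RefSeq on GRCm38.p6, read 5′ to 3′ on the strand of the gene, end before the annotated gene, and carry in capitals the core letters GAGGAA of the site for PU.1 (*Spi1*), the transcription factor of the macrophage lineage, or TTCCTC where it lies on the other strand.
C1qb, chr4:136886201-136886450, minus strand, 250 bases: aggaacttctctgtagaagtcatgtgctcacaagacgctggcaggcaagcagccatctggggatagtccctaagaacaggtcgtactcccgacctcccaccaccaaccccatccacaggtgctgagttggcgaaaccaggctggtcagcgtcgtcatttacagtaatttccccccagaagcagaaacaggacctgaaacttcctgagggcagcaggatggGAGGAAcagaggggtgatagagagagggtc
Mrc1, chr2:14229164-14229391, plus strand, 228 bases: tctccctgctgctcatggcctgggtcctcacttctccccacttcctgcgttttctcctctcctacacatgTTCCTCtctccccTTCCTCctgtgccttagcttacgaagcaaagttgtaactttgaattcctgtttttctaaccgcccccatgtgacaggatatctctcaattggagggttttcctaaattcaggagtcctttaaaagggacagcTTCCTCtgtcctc
F13a1, chr13:37050245-37050494, minus strand, 250 bases: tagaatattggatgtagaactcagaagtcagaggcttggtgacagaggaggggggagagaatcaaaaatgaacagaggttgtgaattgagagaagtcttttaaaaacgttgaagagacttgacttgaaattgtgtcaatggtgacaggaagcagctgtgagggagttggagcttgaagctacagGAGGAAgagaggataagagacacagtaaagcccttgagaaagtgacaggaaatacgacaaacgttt
The stretch of *C1qb* and that of *F13a1* each held the letters 1 time, and that of *Mrc1* held them 3 times, all on the opposite strand. Promoter windows of 250 bases before to 50 after a start site were at hand for 6 of the 10 genes (7 windows, 2 of them for *F13a1*), and the core lay on either strand in those of *C1qb*, *C1qc*, *F13a1* and *Mrc1* but in neither *Cd163* nor *Cx3cr1*. It lies in 28.3% of all 32851 windows of the same length. No CArG box was found in the 7 windows, against 1.63% of all windows. These matches describe letters and are no evidence of binding.

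Per kilobase of annotated exon, the complement genes stood at the top of the list in wild type aorta of both experiments. In HDR wild type *C1qa* had a level of 39.8 ± 21.6 CPM per kb (SD, n = 5) and *C1qb* 26.7 ± 15.8. *C1qc*, *F13a1*, *Mrc1*, *Lyve1*, *Csf1r*, *Cd163* and *Adgre1* followed with means from 16.1 down to 5.25 CPM per kb. Each gene's range over libraries overlapped that of its neighbour in this order. *Cx3cr1* came last at 0.463 ± 0.253 CPM per kb and did not overlap *Adgre1*. In PE2 wild type the first 4 places were the same (*C1qa* 46.0 ± 19.3 and *C1qb* 41.4 ± 20.3 CPM per kb, n = 4), while *Mrc1* stood seventh at 5.08 ± 2.93 and *Cx3cr1* was again last at 0.914 ± 0.325 CPM per kb, with all neighbours overlapping.

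In the HDR experiment the mean level of all 10 genes was lower in *sg/sg* than in wild type aorta, and in the PE2 experiment the mean level of all 10 was higher in *peg/peg* than in wild type. None of these differences passed an adjusted p of 0.05. The fitted log2 fold changes in HDR ran from -0.89 for *C1qa* to -0.43 for *Cd163*, with a median of -0.66 where all tested genes had a median of 0.00. In PE2 they ran from 0.39 for *C1qb* to 0.85 for *Mrc1*, with a median of 0.60 against 0.01 over all tested genes. Single libraries carried much of both differences, the HDR wild type library WT_6 and *peg/peg* replicate 3, each of which had the highest level of its experiment for all 10 genes.

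**Figure D1:**
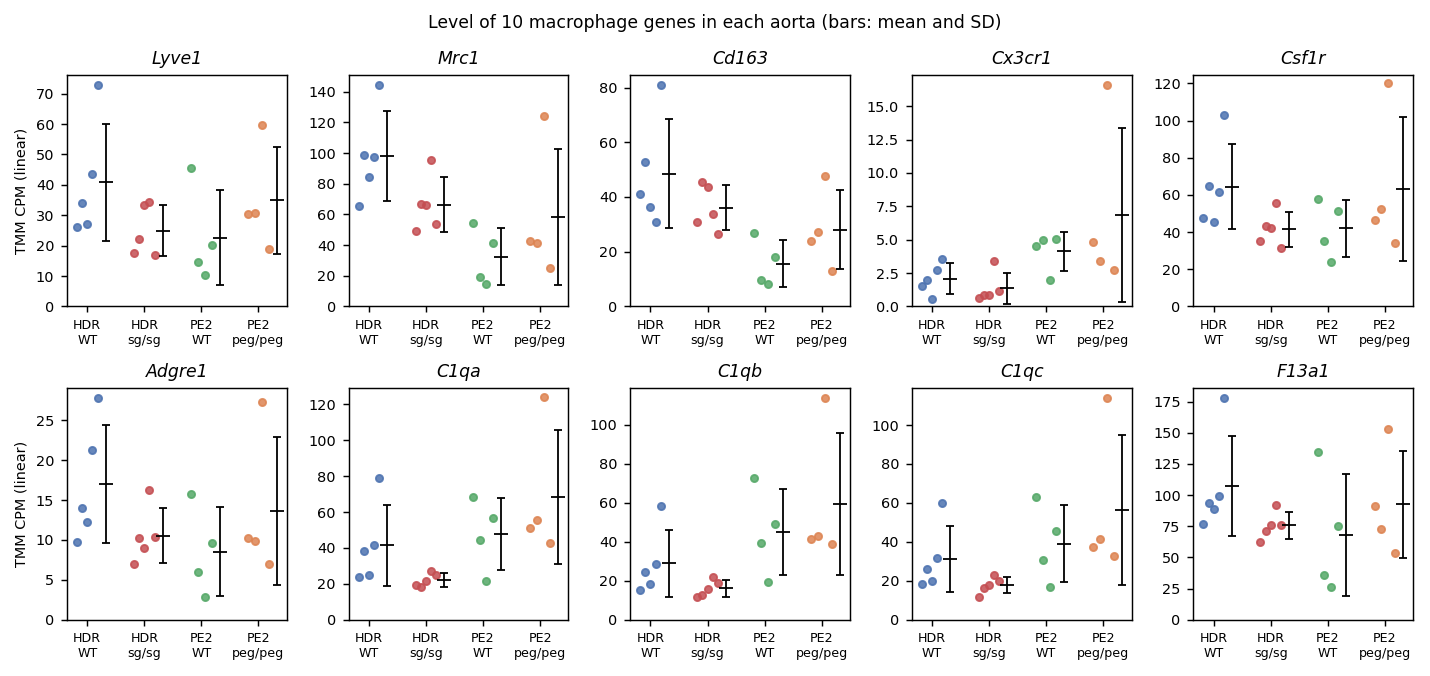
Level of each of the 10 genes in TMM-scaled CPM (vertical axis, linear, from 0) in every aorta, by experiment and genotype, with the mean and SD beside the points. HDR wild type is above sg/sg in mean and PE2 wild type below peg/peg for each gene, and 1 point stands at the top of HDR wild type and 1 at the top of peg/peg in every panel.

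The endocytic and scavenger receptors come first. *Lyve1* (chr7:110850607-110863239) encodes a hyaluronan receptor. In HDR aorta its level was 26.1, 34.1, 27.1, 43.6 and 73.0 CPM in the wild type libraries WT_2 to WT_6 and 17.7, 22.1, 33.3, 34.5 and 17.0 CPM in the *sg/sg* libraries Mut_2 to Mut_6. In PE2 aorta it was 45.5, 14.7, 10.2 and 20.2 CPM in wild type replicates 1 to 4 and 30.4, 30.6, 59.8 and 18.7 CPM in *peg/peg* replicates 1 to 4. The genotypes overlapped in both experiments, with WT_6 and *peg/peg* replicate 3 on top. By edgeR the log2 fold change of *Lyve1* was -0.71 ± 0.31 (SE, here and for the other genes) in HDR and 0.62 ± 0.51 in PE2.

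*Mrc1* (chr2:14229392-14332057) encodes the mannose receptor CD206. Its level was 65.5, 98.7, 84.2, 97.3 and 145 CPM in HDR wild type and 49.3, 67.0, 65.9, 95.3 and 53.8 CPM in *sg/sg*, in the same order of libraries. In PE2 it was 54.2, 19.0, 14.8 and 41.5 CPM in wild type and 42.7, 41.4, 124 and 25.0 CPM in *peg/peg*. All 5 *sg/sg* libraries lay below the wild type median and 2 of them below every wild type library, whereas in PE2 replicate 3 alone exceeded the wild type range. For *Mrc1* the log2 fold change was -0.57 ± 0.22 in HDR and 0.85 ± 0.58 in PE2.

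*Cd163* (chr6:124304656-124330527) encodes the scavenger receptor for haptoglobin bound to hemoglobin. It had 40.9, 52.8, 36.4, 31.0 and 81.0 CPM in HDR wild type and 30.8, 45.4, 43.8, 33.8 and 26.3 CPM in *sg/sg*. PE2 wild type had 27.0, 9.64, 8.01 and 18.05 CPM and *peg/peg* 24.1, 27.0, 47.6 and 13.1 CPM. It showed the smallest HDR difference of the 10 genes, with 3 of 5 *sg/sg* libraries below the wild type median, at a log2 fold change of -0.43 ± 0.25, and 0.84 ± 0.48 in PE2.

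Of the signalling and adhesion receptors, *Csf1r* (chr18:61100598-61132149) encodes the receptor for CSF1 and IL34 on which macrophage survival depends. Its level in HDR was 47.5, 64.8, 45.4, 61.6 and 103 CPM in wild type and 35.0, 43.5, 42.4, 55.8 and 31.3 CPM in *sg/sg*. In PE2 wild type it was 58.0, 35.4, 24.0 and 51.1 CPM, and in *peg/peg* 46.4, 52.2, 120 and 34.3 CPM. In HDR 4 of 5 *sg/sg* libraries were below the lowest wild type library, and Mut_5 alone lay within the wild type range. The log2 fold change was -0.63 ± 0.23 in HDR and 0.59 ± 0.43 in PE2.

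*Adgre1* (chr17:57358691-57483527) encodes F4/80, the antigen by which mouse macrophages are usually stained. It had 9.70, 14.0, 12.3, 21.2 and 27.8 CPM in HDR wild type and 6.93, 10.2, 8.99, 16.3 and 10.3 CPM in *sg/sg*. It had 15.8, 5.94, 2.82 and 9.56 CPM in PE2 wild type and 10.2, 9.87, 27.3 and 6.93 CPM in *peg/peg*. Its lowest and highest PE2 values, in wild type replicate 3 and *peg/peg* replicate 3, were further apart in ratio than those of *Csf1r*. *Adgre1* had a log2 fold change of -0.69 ± 0.30 in HDR and 0.67 ± 0.59 in PE2.

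*Cx3cr1* (chr9:119901616-120069879), the fractalkine receptor, was the least abundant of the 10. HDR wild type had 1.56, 1.98, 0.573, 2.76 and 3.55 CPM and *sg/sg* 0.6004, 0.820, 0.848, 3.41 and 1.17 CPM. The PE2 values were 4.54, 4.96, 1.94 and 5.03 CPM in wild type and 4.80, 3.41, 16.6 and 2.71 CPM in *peg/peg*. Its mean in *peg/peg* was set by replicate 3, since the other three lay within the wild type range. *Cx3cr1* had a log2 fold change of -0.59 ± 0.54 in HDR and 0.74 ± 0.61 in PE2. The gene model of *Cx3cr1* spans 168 kb and overlaps 9 other annotated genes.

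The complement genes *C1qa*, *C1qb* and *C1qc* lie side by side within chr4:136880129-136898803, all on the minus strand, and encode the A, B and C chains of C1q, the subunit that starts the classical pathway. *C1qa* had 23.5, 38.4, 24.7, 41.4 and 78.9 CPM in HDR wild type and 19.2, 18.3, 21.6, 27.2 and 25.1 CPM in *sg/sg*. In PE2 it had 68.6, 44.2, 21.7 and 56.8 CPM in wild type and 51.3, 55.7, 124 and 43.0 CPM in *peg/peg*. All 5 *sg/sg* libraries lay below the wild type median and within a narrow band, while wild type ran from 23.5 to 78.9 CPM, and in PE2 all *peg/peg* libraries but replicate 3 lay inside the wild type range. The mean in *sg/sg* was 0.539 times that in wild type and the mean in *peg/peg* 1.43 times. The log2 fold change was -0.89 ± 0.30 in HDR, the most negative of the 10 genes, and 0.52 ± 0.43 in PE2.

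*C1qb* had 15.3, 24.7, 18.1, 28.8 and 58.3 CPM in HDR wild type and 11.6, 12.6, 15.5, 21.6 and 19.0 CPM in *sg/sg*. *C1qc* had 18.5, 26.1, 19.7, 31.4 and 59.8 CPM in wild type and 11.8, 16.4, 17.99, 23.0 and 19.6 CPM in *sg/sg*. Both followed *C1qa*, with WT_6 on top and the genotypes overlapping. In PE2, *C1qb* had 72.5, 39.4, 19.2 and 48.9 CPM in wild type and 41.2, 42.9, 114 and 38.8 CPM in *peg/peg*, and *C1qc* had 63.0, 30.8, 16.6 and 45.6 CPM and 37.4, 41.5, 114 and 32.7 CPM. The log2 fold changes were -0.85 ± 0.33 and 0.39 ± 0.48 for *C1qb* and -0.81 ± 0.31 and 0.53 ± 0.51 for *C1qc*, HDR first.

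*F13a1* (chr13:36867178-37050244) encodes the A subunit of coagulation factor XIII, a transglutaminase that crosslinks fibrin and is made by tissue macrophages and platelets. It had 76.7, 93.3, 88.8, 99.4 and 178 CPM in HDR wild type and 62.5, 70.8, 76.3, 92.4 and 76.1 CPM in *sg/sg*. In PE2 wild type it had 135, 35.8, 26.6 and 75.0 CPM and in *peg/peg* 91.1, 73.0, 153 and 53.7 CPM. In HDR 4 of 5 *sg/sg* libraries lay below every wild type library, as for *Csf1r*. The log2 fold change was -0.50 ± 0.21 in HDR and 0.45 ± 0.53 in PE2. Summed red cell and platelet markers, most of them hemoglobin, were highest in WT_6 among HDR libraries (427 CPM, against 41.6 to 303 CPM) and lowest in *peg/peg* replicate 3 among PE2 libraries (25.7 CPM, against 68.0 to 1056 CPM), while *F13a1* was highest in both. The sum mostly follows red cells, and the part of platelets in *F13a1* was not tested.

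Against the spread between aortae, neither experiment separated the genotypes. At an unadjusted p under 0.05 by edgeR, 8 of the 10 genes were lower in *sg/sg* (all but *Cd163* and *Cx3cr1*), where the share of all tested genes is 1.63%, and 0 were higher, where it is 0.353%. After Benjamini-Hochberg adjustment over all genes 0 of 10 passed by edgeR (adjusted p = 1.00 for each) and 0 of 10 by DESeq2 (lowest adjusted p = 0.992, 8 at an unadjusted p under 0.05). Exact two-sided permutation tests of the mean CPM gave p from 0.0397 (*Csf1r* and *F13a1*) to 0.325 (*Cx3cr1*) over the 10 genes without adjustment, where 5 against 5 libraries cannot go below 0.00794. For 0 of 10 genes did the 2 genotypes not overlap, a condition met by 0.317% of all tested genes. The 10 genes vary together, so the 8 are not 8 independent results. The genes were also chosen with earlier results of these data known, so their counts here and below are descriptive.

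The HDR count moved with the libraries that entered the fit. Without WT_6, 2 genes were lower at an unadjusted p under 0.05, where the share of all tested genes was 0.863%, and the median log2 fold change of the 10 was -0.40. Without Mut_2 the count was likewise 2 (1.10% of all tested genes) at a median of -0.57. It was 4 without Mut_3 (1.07% of all genes), where the median stayed at -0.66, and 4 without Mut_6 (0.980%), where it was -0.57. It was 6 to 9 without any other library (1.42% to 2.6% of all tested genes). The sign held throughout, with all 10 genes lower in *sg/sg* whichever library was left out.

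In PE2, 0 of 10 genes passed an unadjusted p under 0.05 in either direction by edgeR or by DESeq2, where 3.04% of all tested genes did so higher and 1.27% lower in *peg/peg*. Adjusted p by edgeR ran from 0.861 to 0.882, and the lowest by DESeq2 was 0.945. Exact two-sided permutation tests gave p from 0.171 (*Cd163*) to 0.714 (*Cx3cr1*), with 0.0286 the smallest that 4 against 4 libraries allow. No gene separated the genotypes, against 2.54% of all tested genes. The 95% confidence intervals were wide, for *Mrc1* from -0.49 to 2.19 and for *C1qb* from -0.70 to 1.49 on the log2 scale. Without *peg/peg* replicate 3 the median log2 fold change was 0.07, and *Cx3cr1*, *C1qb* and *C1qc* turned to -0.18, -0.14 and -0.08. Without wild type replicate 3 the median was 0.37. Without wild type replicate 1 it was 0.93 and 2 genes were higher at an unadjusted p under 0.05. The share of all tested genes that were higher was not computed for that fit.

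**Figure D2:**
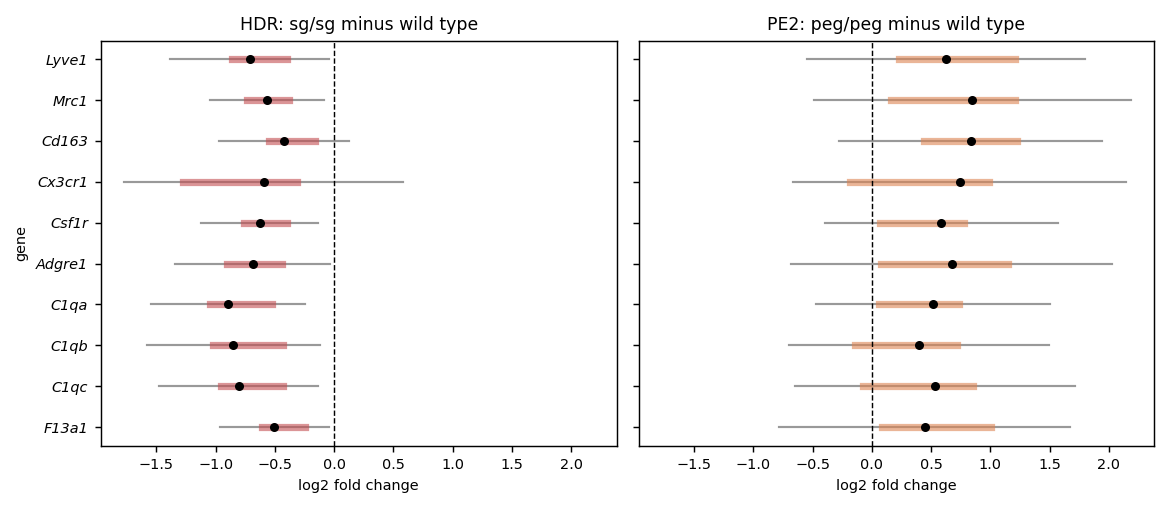
Log2 fold change of each gene (homozygous minus wild type, horizontal axis) in HDR and PE2 as a black point, with its 95% confidence interval as a thin line and the range over fits that each left out 1 library as a thick bar. The points run from -0.89 to -0.43 in HDR and from 0.39 to 0.85 in PE2, and every thick bar stays below 0 in HDR while those of Cx3cr1, C1qb and C1qc cross 0 in PE2.

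The difference between the experiments was tested itself, as the HDR minus the PE2 log2 fold change in an edgeR fit over all 18 libraries. It ran from -1.41 (*Mrc1*) to -0.95 (*F13a1*) with a median of -1.33. None of the 10 genes passed an adjusted p of 0.05, and neither did any other of 18094 genes tested (0%), with adjusted p of 0.911 to 0.977 for the 10. At an unadjusted p under 0.05 the difference was negative for 7 of the 10 genes, against 3.91% of all tested genes. With each library left out in turn the count ran from 0 to 9 and the median from -1.64 to -0.72, and all 10 differences stayed negative. It was 0 without *peg/peg* replicate 3 (median -0.72), 2 without WT_6 (-1.003) or without PE2 wild type replicate 2 (-1.21) or 3 (-1.09), and 4 without WT_5, Mut_2, Mut_3 or Mut_6 (-1.30 to -1.21). It was 9 without Mut_5 or PE2 wild type replicate 1, and 8 without WT_2, WT_4 or *peg/peg* replicate 1, 2 or 4. The share of all tested genes was not computed for these fits, so these counts cannot be set against it. The opposite direction of the macrophage genes in the 2 experiments is therefore a description that the test of the difference did not carry past adjustment.

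Within an experiment the 10 genes tended to rise and fall together from library to library. Over all 18 libraries, the deviations from the group mean of log2 CPM correlated with r from 0.51 to 0.99 in the 45 pairs of genes, with a median of 0.87. Leaving out WT_6 and *peg/peg* replicate 3 gave 0.21 to 0.97 with a median of 0.82 over 16 libraries. Libraries share their depth and cell makeup across genes, so these values describe the aortae and carry no p. *C1qc* lay closest to the mean of the other nine (r = 0.98) and *Adgre1* next (r = 0.97), while *Cd163* (r = 0.81) and *Cx3cr1* (r = 0.77) lay furthest away. WT_6 was highest for 10 of 10 genes in HDR and Mut_2 lowest for 5. In PE2, *peg/peg* replicate 3 was highest and wild type replicate 3 lowest for all 10. In *peg/peg*, replicate 4 was lowest for all 10.

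**Figure D3:**
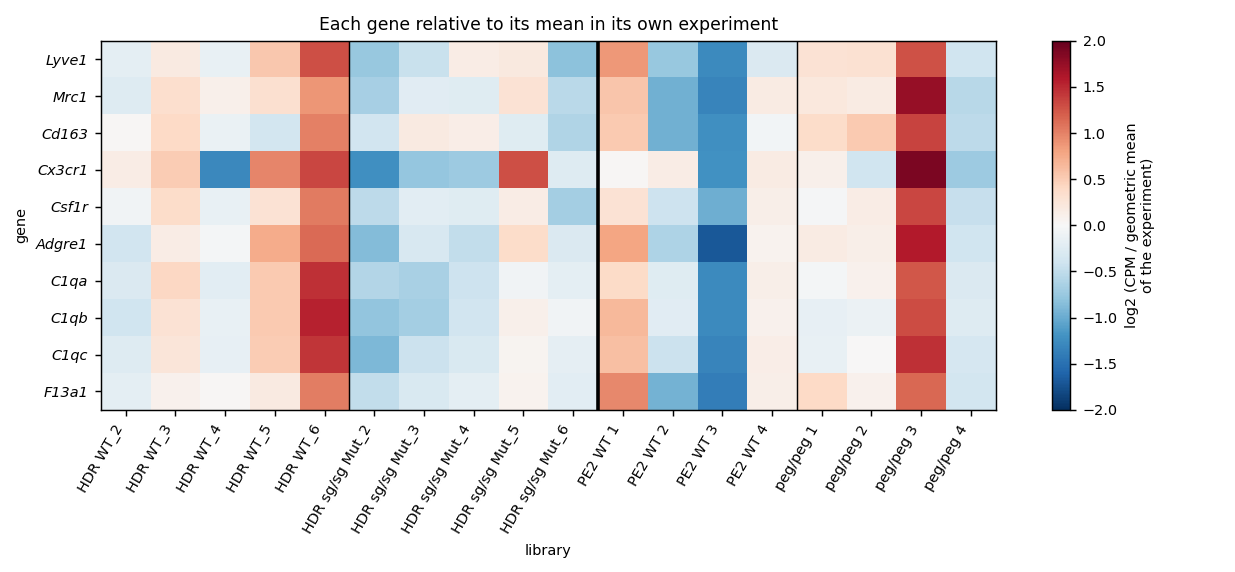
Each gene (rows) in each library (columns) as the log2 ratio of its CPM to its geometric mean in the same experiment, with colours from blue (below) through white to red (above) and lines between the groups. The values run from -1.69 to 1.89. Some columns have 1 colour from top to bottom, red in HDR WT_6 and peg/peg replicate 3 and blue in PE2 wild type replicate 3. Others mix the colours, such as HDR WT_5 and Mut_5, where Cd163 is below its mean and Lyve1 above.

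Among 14751 genes, those whose deviations were most like the mean of the 10 were *Ctss* (r = 0.99), *Ptafr* (r = 0.98), *Lcp1*, *Fcgr2b*, *Ly86*, *Folr2*, *Spi1*, *Cd48*, *Fcrls* and *Cd52* (r = 0.97 to 0.96) over 18 libraries. Without the 2 libraries highest in the macrophage genes the same 10 had r from 0.92 to 0.97. *Ctss* encodes the lysosomal protease cathepsin S, *Fcgr2b* an inhibitory Fc receptor, and *Folr2* a folate receptor of tissue macrophages.

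Other genes of the lineage were read from lists drawn from general knowledge of these cells, but chosen with earlier results of these data known. At an unadjusted p under 0.05, 1.63% of all tested genes were lower in *sg/sg*. That share is given for scale only, since the counts of lists chosen in this way are no independent test of the macrophage genes. Of 20 further genes of resident macrophages, 18 had a lower fitted level in *sg/sg* (median log2 fold change -0.50), and 6 of them at an unadjusted p under 0.05: *Folr2* (-0.95 ± 0.34), *Fcna*, a ficolin (-1.49 ± 0.42), *Ltc4s*, the leukotriene C4 synthase (-1.24 ± 0.56), *Ccl8* (-0.999 ± 0.43), *Cd209f* (-0.65 ± 0.30) and *Vsig4*, a complement receptor (-1.22 ± 0.55). Of 16 genes of macrophages in general, 15 had a lower fitted level (median -0.58), and *Cd68* (-0.74 ± 0.32), *Fcgr1* (-0.95 ± 0.34), *Trem2* (-0.50 ± 0.23) and *Sirpa* (-0.30 ± 0.13) did so at an unadjusted p under 0.05. By DESeq2 the unadjusted p was 0.074 for *Trem2* and 0.056 for *Sirpa*. Without WT_6 each of these named genes had a smaller change, from -0.95 for *Fcna* to -0.18 for *Sirpa*. *Ltc4s* then stood at -0.37, *Vsig4* at -0.45 and *Cd68* at -0.33. In PE2, 16 of 19 tested genes of the first list (median 0.22) and 16 of 16 of the second (median 0.45) had a higher fitted level in *peg/peg*, with 0 at an unadjusted p under 0.05. None of these genes passed an adjusted p of 0.05 in either experiment by edgeR or DESeq2.

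Not every listed gene went with the 10. *Cbr2* and *Mertk* were at 73.7 and 17.7 CPM in *peg/peg* replicate 3, the lowest of all PE2 libraries, where the 10 genes were highest. The 20 further resident genes, of which *Selenop*, *Gas6*, *Cbr2* and *Stab1* were the most abundant, summed to 1997 CPM in that library. This lay within the 1920 to 2245 CPM of the other PE2 libraries. In HDR their sum was highest in WT_6, at 2242 CPM against 1564 to 1858 CPM.

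Of 12 ligands and regulators of the lineage, 10 had a lower fitted level in *sg/sg* (median log2 fold change -0.37) and 8 a higher one in *peg/peg* (median 0.19). *Csf1*, which encodes the main ligand of the CSF1 receptor, had 86.2, 82.5, 75.3, 72.2 and 77.0 CPM in HDR wild type and 77.1, 86.8, 78.3, 79.1 and 86.0 CPM in *sg/sg*, a log2 fold change of 0.05 ± 0.09. In PE2 it had 73.2, 54.2, 70.7 and 65.3 CPM and 70.0, 83.9, 55.9 and 70.3 CPM, a log2 fold change of 0.09 ± 0.14. *Csf1* thus stayed between 54.2 and 83.9 CPM in the PE2 libraries, whose *Csf1r* ran from 24.0 to 120 CPM. *Il34*, the gene of the other ligand, was expressed at 0.639 to 2.58 CPM in HDR and 1.35 to 5.27 CPM in PE2, with its highest values in WT_6 and *peg/peg* replicate 3 and log2 fold changes of -0.42 ± 0.32 and 0.69 ± 0.42, neither at an unadjusted p under 0.05. *Spi1*, the gene of PU.1, was at 4.99 CPM in WT_6 and 11.6 CPM in *peg/peg* replicate 3, the highest of each experiment, with fitted changes of -0.44 ± 0.29 and 0.48 ± 0.53. *Runx1*, a transcription factor of blood lineages, was lower in *sg/sg* at an unadjusted p under 0.05 (-0.46 ± 0.21), the only one of the 12 genes of this list in either experiment.

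Of 12 genes of monocytes and inflammatory macrophages, 7 could be tested in HDR and 8 in PE2. *Plac8* alone had an unadjusted p under 0.05 (-0.66 ± 0.29 in HDR), and the median fitted change was -0.07 in HDR and 0.18 in PE2. Summed over the list, however, *peg/peg* replicate 3 had 165 CPM, of which 87.7 CPM was *Plac8*, against 19.4 to 56.4 CPM in the other PE2 libraries. The antigen presentation genes *H2-Ab1* (-0.81 ± 0.30) and *Cd74* (-0.79 ± 0.34), listed with dendritic cells and also made by macrophages, were lower in *sg/sg* at an unadjusted p under 0.05. Their log2 fold changes were -0.46 and -0.40 without WT_6. The dendritic cell list, of which *Cd74* and *H2-Ab1* hold most of the counts, summed to 359 CPM in *peg/peg* replicate 3 against 64.7 to 174 CPM in the other PE2 libraries and to 290 CPM in WT_6 against 80.2 to 184 CPM in the other HDR libraries.

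Markers of other cells moved with the macrophage genes in some libraries. The 10 genes summed to 325 to 808 CPM in HDR wild type, 246 to 403 in *sg/sg*, 146 to 544 in PE2 wild type and 269 to 900 CPM in *peg/peg*. The 4 fibroblast markers summed to 5805 CPM in *peg/peg* replicate 3 and to 763 to 2398 CPM in the other PE2 libraries, and the wild type library lowest in the 10 genes, replicate 3, was also lowest in fibroblast markers. In *peg/peg* replicate 3 the 10 genes stood at 15.5 CPM per 100 CPM of fibroblast markers, below the 17.1 to 29.6 of all other PE2 libraries. In that library fat markers were at 34.4 CPM, against 540 to 2508 CPM in the others, skeletal and cardiac muscle markers at 1062 CPM, against 6.01 to 66.3 CPM, and lymphatic endothelium markers at 202 CPM, against 48.7 to 116 CPM. In WT_6, in contrast, fibroblast markers (2202 CPM) and lymphatic endothelium markers (86.9 CPM) lay within the range of the other HDR libraries while fat markers were the highest of HDR at 2012 CPM. Also highest in WT_6 were lymphocyte markers (16.5 CPM, against 2.47 to 13.3) and neutrophil and mast cell markers (29.7 CPM, against 6.44 to 21.2). Here the 10 genes stood at 36.7 CPM per 100 CPM of fibroblast markers, against 12.0 to 25.0 in the other HDR libraries. The aortae had been cleaned of the surrounding tissue, and the part of fat, adventitia or other tissue left on them was not tested. The 4 fibroblast markers had a median log2 fold change of -0.09 in HDR (3 lower, 1 higher) and 0.90 in PE2 (4 higher). *Thy1* was lower in *sg/sg* at an unadjusted p under 0.05 by edgeR (-0.83 ± 0.19), where 1.63% of all tested genes were, the only one of the 4 in either experiment. No fibroblast list difference passed an adjusted p of 0.05 in either experiment.

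**Figure D4:**
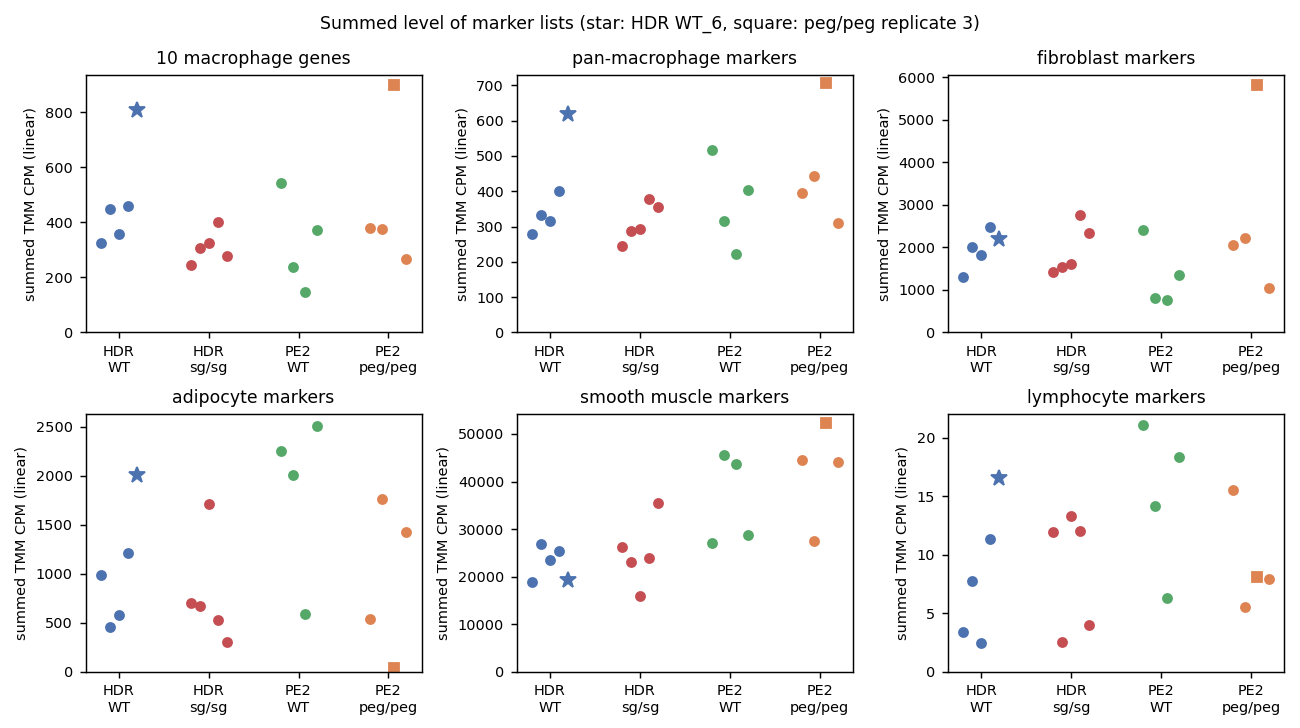
Summed CPM (vertical axes, linear, from 0) of the 10 macrophage genes and of 5 marker lists in every library by experiment and genotype, with a star for HDR WT_6 and a square for peg/peg replicate 3. The square is highest for macrophage, pan-macrophage, fibroblast and smooth muscle markers and lowest for fat markers among PE2 libraries, and the star is highest for both macrophage lists and for fat markers among HDR libraries.

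The proportions among the macrophage genes within a library, which do not depend on scaling, overlapped between genotypes, and some of them did not overlap between experiments. *C1qa* over *Csf1r* was 0.495 to 0.768 in HDR wild type and 0.420 to 0.801 in *sg/sg*, and 0.907 to 1.25 in PE2 wild type and 1.03 to 1.25 in *peg/peg*. *Mrc1* over *Csf1r* was 1.38 to 1.85 in HDR wild type and 1.41 to 1.72 in *sg/sg*, and 0.536 to 0.935 in PE2 wild type and 0.731 to 1.03 in *peg/peg*. The 3 C1q genes summed to 0.706 to 1.36 times *Mrc1* over all HDR libraries and to 2.84 to 6.03 times over all PE2 libraries. These ranges did not overlap between the experiments, whereas the genotypes of each experiment overlapped in each of these ratios. The same held for *C1qb* over *Csf1r* (0.289 to 0.608 in HDR and 0.803 to 1.25 in PE2) and *C1qc* over *Csf1r* (0.339 to 0.626 and 0.694 to 1.09). It also held for the scarce *Cx3cr1* over *Csf1r* (0.0126 to 0.0611 and 0.0653 to 0.140). The remaining ratios did overlap between the experiments. *Cd163* over *Csf1r* was 0.504 to 1.04 in HDR and 0.272 to 0.519 in PE2, and *Adgre1* over *Csf1r* 0.198 to 0.345 and 0.118 to 0.272. *F13a1* over *Csf1r*, *Lyve1* over *Csf1r*, *Lyve1* over *Mrc1*, and *C1qb* and *C1qc* over *C1qa* overlapped as well. In the C1q to *Mrc1* ratio WT_6 was the highest HDR library at 1.36, against at most 1.19 in the others, and *peg/peg* replicate 3 the lowest PE2 library at 2.84, against at least 3.04. Age, strain label and experiment changed together, so the source of the difference in proportions cannot be told apart.

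**Figure D5:**
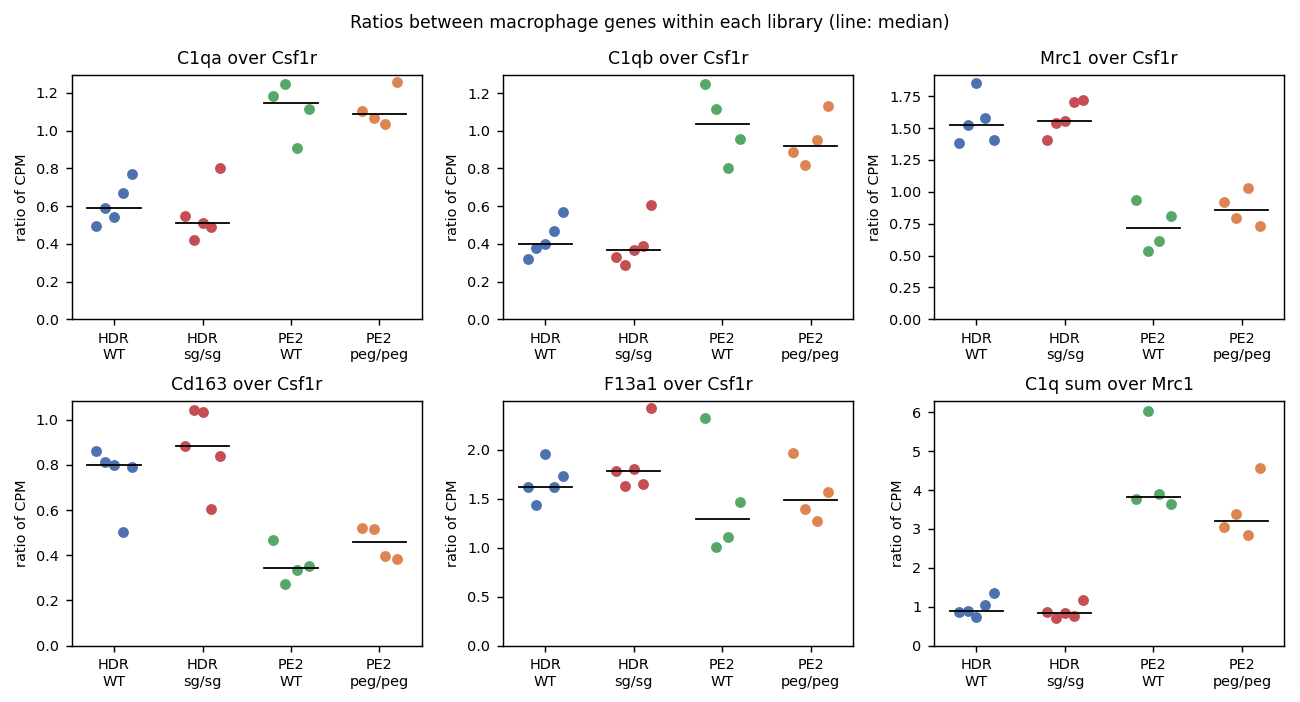
Ratios of CPM between macrophage genes within each library (vertical axes, from 0) by experiment and genotype, with a line at the median of each group. C1qa and C1qb over Csf1r are higher and Mrc1 over Csf1r is lower in all 8 PE2 libraries than in all 10 HDR libraries, while wild type and homozygous libraries of an experiment overlap.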

How the data were processed

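Per the methods of the study, reads cleaned with fastp were mapped by the authors to GRCm38 (Gencode M22) with STAR 2.7.0f and assigned to genes with featureCounts (Subread 1.6.4). The deposited tables of raw counts were used here, and the deposited normalized values were not. The strand setting is not given in the sources used here, so overlapping genes may share reads. Columns of the HDR table give the genotype but no number of the labels, so HDR libraries carry their column names and could not be tied to sex.

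Counts were tested within each experiment with edgeR 4.0.16 in R 4.3.3 (filterByExpr, TMM, quasi-likelihood test, Benjamini-Hochberg adjusted p under 0.05), with DESeq2 1.42.0 and limma 3.58.1 (voom) as alternatives. The test was tried on simulated data. Single CPM values were compared by exact permutation tests (scipy 1.17.1). Likeness was Pearson's r with the mean of the 10 genes. Positions and exon lengths came from Gencode M21 on GRCm38. No pair of libraries within a group agreed within sampling noise (lowest chi-square per degree of freedom 15.6 over 32 pairs). The 10 genes and the 14 other lists were chosen with earlier results of these data known. Named beside the 10 genes were *Tspan2*, the up to 4 most abundant genes of each list, list genes at an unadjusted p under 0.05, and the 10 genes of highest likeness, of which those that bear on the macrophage genes are given. *Ly6c2*, *Chil3*, *Il1b*, *Tnf* and *Il34* were named after their values were seen.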

Additional observations from a re-analysis of the deposited data

Results flagged for a closer look

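Among 40 sets of values (10 genes in 4 groups), Dixon's ratio exceeded its critical value in 8 sets, which involved 4 libraries, where chance alone gives about 1 in 20 sets and the 10 genes are not independent. In *peg/peg*, replicate 3 stood apart for *Cx3cr1* (16.6 CPM), *Adgre1* (27.3 CPM), *C1qa* (124 CPM), *C1qb* (114 CPM) and *C1qc* (114 CPM). In PE2 wild type, replicate 3 stood apart for *Cx3cr1* at the low end (1.94 CPM). In HDR, WT_6 stood apart for *F13a1* in wild type (178 CPM), and Mut_5 for *Cx3cr1* in *sg/sg* (3.41 CPM).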

How the results depend on the processing

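In HDR the fold change of each of the 10 genes kept its sign and its side of the threshold in all 160 values over 16 other settings, from -1.28 to -0.16 on the log2 scale. In PE2, 167 of 170 values over 17 settings did so. The exceptions were *Cx3cr1*, *C1qb* and *C1qc* without *peg/peg* replicate 3. With each library left out in turn their log2 fold changes ran from -0.18 to 0.99, from -0.14 to 0.71 and from -0.076 to 0.85, and that of *Csf1* in PE2 ran from -0.016 to 0.17, negative without *peg/peg* replicate 2. That of *Spi1* in PE2 ran from -0.052 to 0.84, negative without *peg/peg* replicate 3. The number of the 10 genes lower in *sg/sg* at an unadjusted p under 0.05 ran from 2 to 9 with each library left out (0.863% to 2.6% of all tested genes). In PE2 the number in either direction ran from 0 to 2, where the share of all tested genes in either direction was not computed. Over all genes, the number called in HDR was 4 by DESeq2 and 4 with no filter beyond 1 count in total. In PE2 it was 33 by DESeq2, 0 with sex as a covariate, 0 in female libraries alone, and 0 to 2 with each library left out. With the replicate number as a replicate block in PE2, 0 genes were called and the median of the 10 genes was 0.52. Same-numbered PE2 libraries did not deviate together (r from -0.29 to 0.02). With 4 libraries per genotype this gives no sign of pairing by number but cannot exclude it. No replicate block or sex covariate could be fitted in HDR, whose columns are not tied to the labels. The number of libraries, 4 or 5 per group, limits the precision.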
